A study of Mus musculus with 6 samples.

Results

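Muscle RNA of *Tarsl2*+/+ and *Tarsl2*-/- mice was examined for 29 genes of cholesterol and fatty acid synthesis, taken by gene name from a count table of 53084 genes. The members are 17 enzymes of the mevalonate and sterol pathway, 5 SREBP control genes and 7 lipogenic enzymes. The SREBP control genes encode the SREBP transcription factors and the proteins that control them. The lipogenic enzymes make, lengthen or desaturate fatty acids. *Tarsl2* encodes a threonyl-tRNA synthetase-like protein. The *Tarsl2*-/- mice carried a homozygous germline deletion around exon 3, made with CRISPR/Cas9 and present in all cells, and the *Tarsl2*+/+ mice were wild type. By the sample records, all were male C57BL/6 mice (C57BL/6J in the methods for the knockout line) 6 weeks old on standard chow, with 3 mice (583, 584 and 595) in the *Tarsl2*+/+ group and 3 mice (588, 589 and 591) in the *Tarsl2*-/- group, and 1 library per mouse. Mouse 589 has a title prefix unlike that of the other *Tarsl2*-/- samples (KOT in place of KO) but the same genotype label. The comparison asks which genes of these pathways changed in muscle when *Tarsl2* was lost. Which muscle was dissected is not given in the sources used here.

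Cholesterol is built from acetyl-CoA through mevalonate, squalene and lanosterol. Its genes are switched on together by SREBP2, a membrane-bound transcription factor that the escort protein SCAP carries to the Golgi for cleavage when sterols are low and that the INSIG proteins hold back when sterols are high. SREBP1 drives the fatty acid genes in the same way, and its own gene is a target of the liver X receptors (LXRs), which sense oxysterols. Muscle fibres burn far more fatty acid than they make, whereas adipocytes and the glial cells around nerves, both present in dissected muscle, synthesize lipid.

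The libraries held between 16176591 and 20123767 counts, and 3 counts correspond to between 0.149 and 0.185 CPM (gene counts relative to the library total, scaled by TMM). *Tarsl2* itself had 26.7, 32.1 and 24.4 CPM in *Tarsl2*+/+ muscle and 2.23, 1.87 and 1.80 CPM in *Tarsl2*-/- muscle, so the labels and the targeted gene go together. Skeletal muscle markers summed to 103000, 99400 and 96500 CPM in *Tarsl2*+/+ and 119000, 109000 and 108000 CPM in *Tarsl2*-/- muscle, without overlap. Of the 53084 genes, 15075 had enough counts for the edgeR quasi-likelihood test, and 342 of these (2.27%) differed at an adjusted p under 0.05. Among all tested genes, 135 (0.896%) were higher and 207 (1.37%) lower in *Tarsl2*-/- muscle, and in 24.6% the 3 mice of one genotype were all above the 3 of the other. In whole muscle, fewer cells of a type and less RNA per cell cannot be told apart.

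Of the 29 members, 28 had enough counts to be tested, and 2 of these passed, beside 342 of the 15075 tested genes (2.27%). *Fdft1*, the squalene synthase gene, rose and *Scd2*, a stearoyl-CoA desaturase gene, fell in *Tarsl2*-/- muscle. *Fdps*, which encodes farnesyl diphosphate synthase, had 4, 1 and 0 counts in *Tarsl2*+/+ muscle and 1, 5 and 1 counts in *Tarsl2*-/- muscle and was not tested. Of the 50-base stretches of its transcript, 86.4% also occur in transcripts of other annotated genes, so its reads may not have been assigned to it. Of the 28 tested members, 13 had a positive and 15 a negative log2 fold change (*Tarsl2*-/- over *Tarsl2*+/+), with a median of -0.02 beside 0.00253 over all tested genes. The genotypes did not overlap in 5 of the 28 (17.9%), a share below that of all tested genes. In 24 members the 95% interval of the log2 fold change lay within 1 unit of 0, which bounds the size of any difference.

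**Figure D1:**
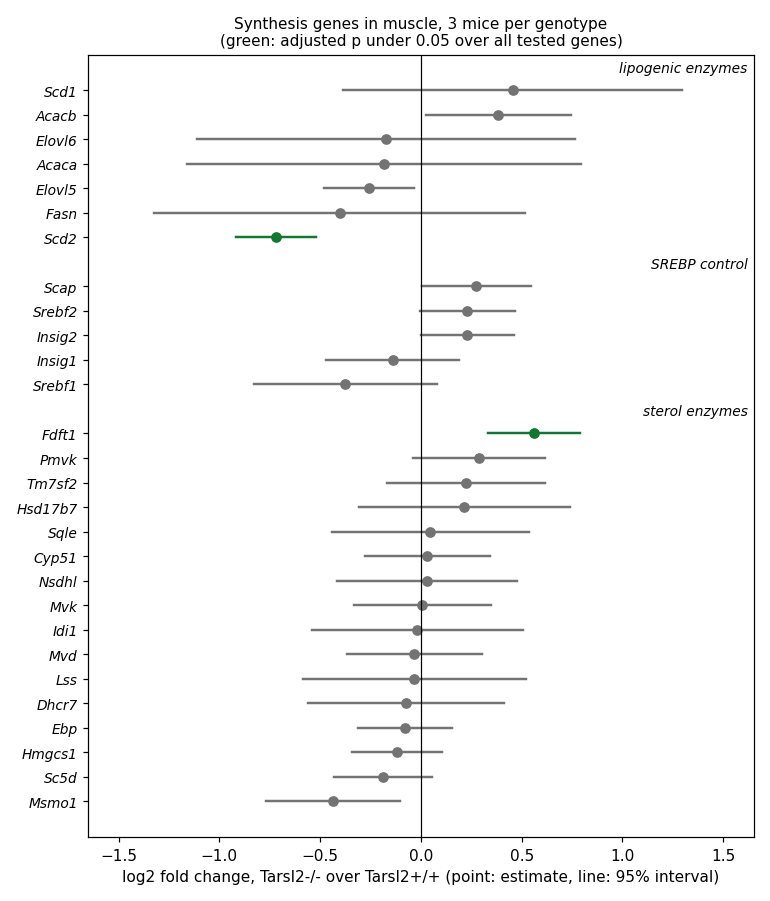
Each row is 1 of the 28 tested members, grouped as lipogenic enzymes, SREBP control genes and sterol enzymes. The x axis is the log2 fold change (*Tarsl2*-/- over *Tarsl2*+/+), points are estimates from 3 mice per genotype and lines 95% intervals. *Fdft1* at 0.56 and *Scd2* at -0.72, in green, passed the test, and the widest intervals are those of *Fasn*, *Acaca*, *Elovl6* and *Scd1*.

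Per kilobase of gene length, *Scd1* had the highest level of the members in every mouse, at 83.3 ± 48.4 CPM per kilobase in *Tarsl2*+/+ and 114 ± 61.1 in *Tarsl2*-/- mice (both SD, n = 3). *Insig2* (14.5 ± 1.95), *Fasn* (12.9 ± 7.36) and *Fdft1* (10.8 ± 0.732, each SD, n = 3, *Tarsl2*+/+) followed. The levels of *Insig2*, *Fasn* and *Fdft1* lay within the spread of *Fasn*. *Insig1*, *Hmgcs1*, *Pmvk* and *Elovl5*, from 8.55 ± 1.79 down to 8.16 ± 0.943 CPM per kilobase, lay within their spread of each other, as did *Acacb*, *Sc5d*, *Mvk* and *Srebf1*, from 5.57 ± 0.716 down to 4.94 ± 1.24. The lowest tested members were *Sqle* (0.757 ± 0.103), *Hsd17b7* (0.412 ± 0.0716) and *Lss* (0.209 ± 0.0413 CPM per kilobase, each SD, n = 3), which encode squalene epoxidase, a 3-ketosteroid reductase and lanosterol synthase. *Lss* had as few as 30 counts in a library, a counting error of 18.3%, so small differences in it were not detectable at this depth.

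**Figure D2:**
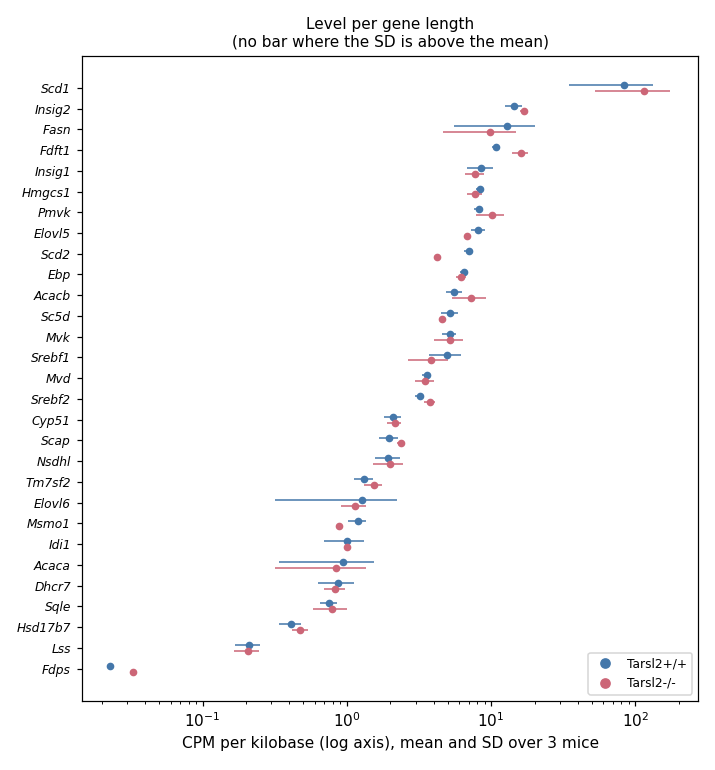
CPM per kilobase of gene length on a log axis for the 29 members, with the mean and SD of 3 mice per genotype (blue *Tarsl2*+/+, red *Tarsl2*-/-). *Scd1* stands at the top with 83.3 and *Fdps*, with at most 5 counts in a library, at the bottom.

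Among the enzymes that turn acetyl-CoA units into the isoprenoid building blocks, none passed the test. *Hmgcs1*, which makes HMG-CoA and is a standard SREBP2 target, had 40.9, 37.2 and 37.0 CPM in *Tarsl2*+/+ muscle and 35.6, 39.4 and 31.2 CPM in *Tarsl2*-/- muscle. The genotypes overlapped, and the log2 fold change was -0.12 (95% interval -0.34 to 0.11, adjusted p = 0.57). *Mvk* and *Pmvk*, the kinases that phosphorylate mevalonate in turn, had log2 fold changes of 0.01 and 0.29 (adjusted p = 0.989 and 0.318). *Mvd*, the decarboxylase that follows, and *Idi1*, the isomerase that makes the allylic isoprene unit, were at -0.03 and -0.02 (adjusted p = 0.938 and 0.982), and 21.3% of the 50-base stretches of *Idi1* also occur in other genes. In *Pmvk* mouse 589 stood out, at 21.7 CPM, against 13.2 to 15.2 CPM in the other mice.

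*Fdft1* (ENSMUSG00000021273, chr14:63145150-63179578, minus strand, GRCm38), which joins a pair of farnesyl units into squalene and so commits carbon to sterols, had 49.4, 44.1 and 44.0 CPM in *Tarsl2*+/+ muscle and 60.7, 64.9 and 77.0 CPM in *Tarsl2*-/- muscle. The lowest *Tarsl2*-/- value lay above the highest *Tarsl2*+/+ value. The mean rose by 47.5%, from 45.8 ± 3.09 to 67.5 ± 8.48 CPM (SD, n = 3), a log2 fold change of 0.56 with a standard error of 0.10 (adjusted p = 0.0205 from edgeR; exact two-sided permutation p = 0.1, the smallest that 3 mice against 3 allow). The call was lost, at adjusted p values of 0.0617, 0.0803 and 0.0729, without *Tarsl2*+/+ mouse 583, *Tarsl2*+/+ mouse 595 or *Tarsl2*-/- mouse 591, while the log2 fold change stayed between 0.45 and 0.63 over all alternatives. *Fdft1* overlaps the end of *Ctsb*, a more abundant cathepsin gene, by 774 bases on the opposite strand, and whether the authors' counting used strand is not given in the sources used here. *Ctsb* had 387, 417 and 377 CPM in *Tarsl2*+/+ muscle and 309, 338 and 345 CPM in *Tarsl2*-/- muscle. Its log2 fold change was -0.25 (adjusted p = 0.154), opposite in sign to that of *Fdft1*. In addition, 10.9% of the 50-base stretches of the *Fdft1* transcript also occur in *Gm6781*.

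None of the steps on either side of lanosterol passed the test. *Sqle*, which adds oxygen to squalene, ranged from 3.06 to 5.24 CPM over the 6 mice with a log2 fold change of 0.05 (adjusted p = 0.94), and *Lss*, which closes the rings, from 1.75 to 2.68 CPM with a log2 fold change of -0.03 (adjusted p = 0.964). The demethylation steps that follow belong to *Cyp51*, *Tm7sf2*, *Msmo1*, *Nsdhl* and *Hsd17b7*. *Msmo1*, the C4-methyl oxidase, had 6.26, 8.34 and 7.40 CPM in *Tarsl2*+/+ muscle and 5.41, 5.43 and 5.44 CPM in *Tarsl2*-/- muscle. The genotypes did not overlap, but the log2 fold change of -0.44 (standard error 0.15) did not pass (adjusted p = 0.145). *Cyp51*, the 14α-demethylase, was at 0.03, *Tm7sf2*, a C14 reductase, at 0.22, *Nsdhl*, the decarboxylating C4 dehydrogenase, at 0.03 and *Hsd17b7*, which reduces the ketone left behind, at 0.22 on the log2 scale, all with overlapping genotypes. *Tm7sf2* overlaps *Vps51* on the same strand by 532 bases, where reads could be counted on either gene. *Ebp*, the sterol isomerase, *Sc5d*, the desaturase of the B ring, and *Dhcr7*, the last reductase before cholesterol, were at -0.08, -0.19 and -0.08, also overlapping.

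Over the 16 tested sterol enzymes, 1 was higher and 0 were lower at the threshold, 8 estimates were positive and 8 negative, and the median log2 fold change was -0.00483. At an unadjusted p under 0.05 there were 2, *Fdft1* and *Msmo1*, in opposite directions. All 16 intervals lay within 1 log2 unit of 0 and 7 within 0.5. Next to the 0.56 of *Fdft1*, the largest positive estimate was the 0.29 of *Pmvk*, and the difference between these genes was not tested. The summed level of the list was 206, 212 and 192 CPM in *Tarsl2*+/+ muscle and 208, 234 and 220 CPM in *Tarsl2*-/- muscle. The genotypes overlapped in this sum, which includes *Fdft1*, with means of 45.8 CPM in *Tarsl2*+/+ and 67.5 CPM in *Tarsl2*-/- muscle.

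The sterol enzyme genes shared a promoter feature that their selection had not used. The RefSeq promoter windows (GRCm38.p6, 250 bases before to 50 after each annotated start) covered 24 of the 29 members and 14 of the 17 sterol enzymes, without *Fdft1*, *Sqle*, *Fdps*, *Scd1* and *Scd2*. The box CCAAT, bound by NF-Y, a factor known to act beside SREBP, was searched on both strands, so that it reads ATTGG on the other. It lay in a window of 14 of 14 sterol enzyme genes (100%), 4 of 5 SREBP control genes and 3 of 5 lipogenic genes, against 41.1% of 27025 genes with a window and 42.5% of the 10622 tested genes with one. Within the 100 bases before the start it was found in 13 of the 14 sterol enzyme genes (92.9%) and in 25.9% of the tested genes. Genes with several annotated starts were counted once if any window matched. The windows of *Acaca* (no box) and *Acacb* (box) lay wholly inside the gene as given in the count table. So did the windows with the box of *Dhcr7* and *Tm7sf2*. A match of letters is not a binding site. The 100 bases before the start of 5 of these genes, chosen to span the pathway, are printed in the direction of transcription with the box in capitals. They run at chr8:122443423-122443522 (minus strand), chr13:8885506-8885605 (plus), chr10:76531505-76531604 (plus), chr8:64733579-64733678 (minus) and chr19:6067851-6067950 (minus).
*Mvd*: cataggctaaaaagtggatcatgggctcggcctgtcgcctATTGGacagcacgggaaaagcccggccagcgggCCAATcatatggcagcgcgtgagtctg
*Idi1*: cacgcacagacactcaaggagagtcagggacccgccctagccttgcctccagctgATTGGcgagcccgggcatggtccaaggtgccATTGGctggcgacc
*Lss*: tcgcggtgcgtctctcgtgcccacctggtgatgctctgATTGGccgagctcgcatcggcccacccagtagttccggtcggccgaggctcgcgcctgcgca
*Msmo1*: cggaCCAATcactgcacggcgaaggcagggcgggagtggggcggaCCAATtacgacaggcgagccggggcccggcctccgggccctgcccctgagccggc
*Tm7sf2*: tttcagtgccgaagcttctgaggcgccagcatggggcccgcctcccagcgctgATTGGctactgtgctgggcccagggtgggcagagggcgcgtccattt

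The sterol regulatory element TCACNCCAC, searched on both strands, was found in 1 of the 24 members with a window (4.17%), *Hmgcs1*, and in 1.44% of all genes. The E-box form TCACGTGA was found in 0 of the 24 and in 1.12% of all genes. In *Hmgcs1* the element begins 137 bases before the start, between CCAAT boxes at 176 and 45 bases before it. The 250 bases before the *Hmgcs1* start (chr13:119690101-119690350, plus strand) are shown because they hold both motifs, each in capitals.
*Hmgcs1*: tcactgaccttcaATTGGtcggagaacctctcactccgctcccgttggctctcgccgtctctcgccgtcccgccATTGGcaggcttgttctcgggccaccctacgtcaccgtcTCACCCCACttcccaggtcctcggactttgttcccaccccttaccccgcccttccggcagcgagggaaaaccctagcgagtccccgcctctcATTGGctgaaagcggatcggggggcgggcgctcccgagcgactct
Of the genes printed here, *Hmgcs1*, with both motifs, and *Msmo1*, *Mvd* and *Lss*, with the box alone, had log2 fold changes between -0.44 and -0.03. *Idi1* and *Tm7sf2*, also with the box alone, were at -0.02 and 0.22. Over all tested sterol enzymes 8 estimates were positive and 8 negative, and a link between motif and direction was not tested.

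The SREBP control genes gave 0 calls among 5 by edgeR, with 1 at an unadjusted p under 0.05, and 0 by DESeq2 and limma-voom. *Srebf2*, which encodes SREBP2, had 15.1, 17.3 and 15.7 CPM in *Tarsl2*+/+ muscle and 17.3, 20.6 and 18.7 CPM in *Tarsl2*-/- muscle. The *Tarsl2*-/- mice were the 3 highest, mouse 588 by a margin below the printed digits, and the log2 fold change was 0.23 (adjusted p = 0.259). *Scap*, the escort protein gene, was at 0.27 (adjusted p = 0.246) and *Insig2*, one of the anchors, at 0.23 (adjusted p = 0.255), both with overlapping genotypes. *Srebf1*, the gene of SREBP1, had 24.5, 35.9 and 23.2 CPM in *Tarsl2*+/+ muscle and 16.9, 29.1 and 18.8 CPM in *Tarsl2*-/- muscle, which gave -0.37 on the log2 scale (adjusted p = 0.348). The *Srebf1* values overlapped because mouse 589 was above 2 of the *Tarsl2*+/+ mice. *Insig1*, the anchor that is itself a strong SREBP target, was at -0.14 (adjusted p = 0.655), with mouse 584 highest at 32.8 CPM and mouse 589 next at 28.1 CPM.

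*Scd2* (ENSMUSG00000025203, chr19:44293676-44306864, plus strand, GRCm38) had the smallest p of the members. It had 41.3, 35.7 and 37.5 CPM in *Tarsl2*+/+ muscle and 22.7, 23.6 and 23.2 CPM in *Tarsl2*-/- muscle. The genotypes were far apart, and the *Tarsl2*-/- mice were nearly equal. The mean fell by 39.2%, from 38.2 ± 2.88 to 23.2 ± 0.477 CPM (SD, n = 3), a log2 fold change of -0.72 with a standard error of 0.09 (adjusted p = 0.00338 from edgeR). It stayed between -0.78 and -0.66 and past the threshold in 13 of 13 alternatives, with a largest adjusted p of 0.0222. *Scd2* makes oleate and palmitoleate from saturated fatty acids, as *Scd1* does, but is the form of brain and many other tissues, while *Scd1* is the form of liver and fat. *Scd1* did not go with it. It had 249, 672 and 288 CPM in *Tarsl2*+/+ muscle and 383, 893 and 381 CPM in *Tarsl2*-/- muscle, with wide overlap. The *Scd1* estimate was 0.46 on the log2 scale, with a standard error of 0.38 (adjusted p = 0.555).

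**Figure D3:**
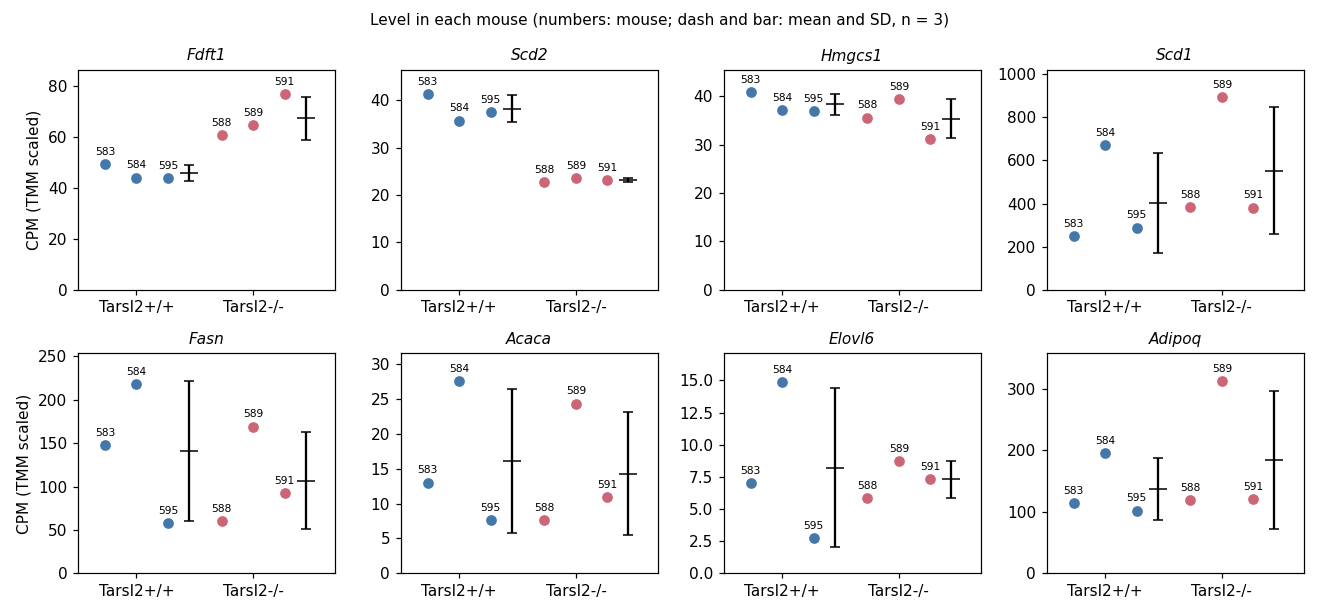
CPM (TMM scaled) in each mouse for 7 members and *Adipoq*, an adipocyte marker, with the mean and SD of 3 mice per genotype beside the points. *Fdft1* and *Scd2* separate the genotypes, *Hmgcs1* does not, and *Scd1*, *Fasn*, *Acaca*, *Elovl6* and *Adipoq* are highest in mouse 584 among *Tarsl2*+/+ and mouse 589 among *Tarsl2*-/- mice.

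Both desaturase genes lie on chromosome 19 and are close copies, which matters for how far their reads can be told apart. Their coding sequences were identical at 90.7% of 1064 aligned bases, with a longest identical run of 147 bases. Of the 50-base stretches of the whole transcripts, 4.66% of *Scd1* and 4.01% of *Scd2* also occurred in other genes, among them each other, *Scd3* and *Scd4*. A window of 90 coding bases (coding positions 171 to 260 of *Scd1* and 180 to 269 of *Scd2*, GENCODE vM21) is shown with its 7 differences in capitals to make the likeness visible.
*Scd1*: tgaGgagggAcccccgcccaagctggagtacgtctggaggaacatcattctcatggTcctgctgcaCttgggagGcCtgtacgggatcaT
*Scd2*: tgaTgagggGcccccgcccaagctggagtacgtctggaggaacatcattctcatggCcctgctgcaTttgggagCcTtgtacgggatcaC
*Scd1* had 4251 to 14325 counts per library and *Scd2* 379 to 714. The part of reads shared between these genes in their levels was not tested.

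None of the other lipogenic enzymes passed the test. *Fasn*, the fatty acid synthase, had 148, 218 and 57.7 CPM in *Tarsl2*+/+ muscle and 59.8, 169 and 92.0 CPM in *Tarsl2*-/- muscle (log2 fold change -0.40 ± 0.42, standard error, adjusted p = 0.644). *Acaca*, the acetyl-CoA carboxylase of lipogenic tissue, had 13.0, 27.5 and 7.66 CPM in *Tarsl2*+/+ and 7.64, 24.3 and 10.9 CPM in *Tarsl2*-/- muscle (log2 fold change -0.18, adjusted p = 0.867), and 52.6% of its 50-base stretches also occur in *Gm5182*. *Elovl6*, which lengthens palmitate to stearate, had 7.02, 14.9 and 2.73 CPM in *Tarsl2*+/+ and 5.85, 8.73 and 7.34 CPM in *Tarsl2*-/- muscle (log2 fold change -0.17, adjusted p = 0.868). In these 3 genes mouse 584 was the highest and, within *Tarsl2*-/-, mouse 589. *Acacb*, the muscle form of the carboxylase, whose product malonyl-CoA holds back fatty acid entry into mitochondria, had 56.0, 59.1 and 45.9 CPM in *Tarsl2*+/+ and 55.9, 91.2 and 63.4 CPM in *Tarsl2*-/- muscle. The *Acacb* genotypes overlapped and the log2 fold change of 0.38 did not pass (adjusted p = 0.219). *Elovl5*, which lengthens polyunsaturated fatty acids, had 32.3, 28.3 and 25.7 CPM in *Tarsl2*+/+ and 23.5, 24.9 and 23.7 CPM in *Tarsl2*-/- muscle, without overlap but also short of the threshold (log2 fold change -0.26, adjusted p = 0.19).

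Over the 7 lipogenic enzymes, 0 were higher and 1 was lower at the threshold, 3 had an unadjusted p under 0.05, and the median log2 fold change was -0.18. The median SD between mice of one genotype was 0.742 on the log2 scale for these genes, against 0.212 for the sterol enzymes and 0.166 for the SREBP control genes. The SD of *Fasn*, *Acaca* and *Elovl6* lay at percentile 99.3 of all tested genes and that of *Scd2* at percentile 11.0. Without mouse 584 the lipogenic median was 0.46, which turns its direction, so no direction can be given for the list as a whole.

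Adipocyte markers moved with the same mice. The mean log2 level of the lipogenic enzymes, as a deviation from each gene's mean, was 0.588 in mouse 584 and 0.438 in mouse 589 and between -0.527 and 0.042 in the other mice, and that of 16 adipocyte markers was 0.318 and 0.907 in the same mice and between -0.499 and -0.153 in the others. All 16 markers had enough counts to be tested, 0 passed the edgeR test, and 6 had an unadjusted p under 0.05. Of the 16, 15 had positive estimates, with a median log2 fold change of 0.47. Their summed level was 4930, 6820 and 4160 CPM in *Tarsl2*+/+ muscle and 5160, 10600 and 5460 CPM in *Tarsl2*-/- muscle. *Fabp4* and *Car3*, at 1840 and 1430 CPM in mouse 583, made up most of this sum in every mouse. How particular each marker is to adipocytes was not tested. *Adipoq*, the gene of adiponectin, was at 114, 195 and 102 CPM in *Tarsl2*+/+ and 119, 313 and 121 CPM in *Tarsl2*-/- muscle. Mice 584 and 589 held the 2 highest levels in 11 of the 16 adipocyte markers (68.8%), 4 of the 7 lipogenic enzymes, 2 of the 5 SREBP control genes and 6 of the 16 sterol enzymes, against 7.84% of all tested genes, a count chosen after these values were seen. The part of fat tissue in these levels was not tested.

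**Figure D4:**
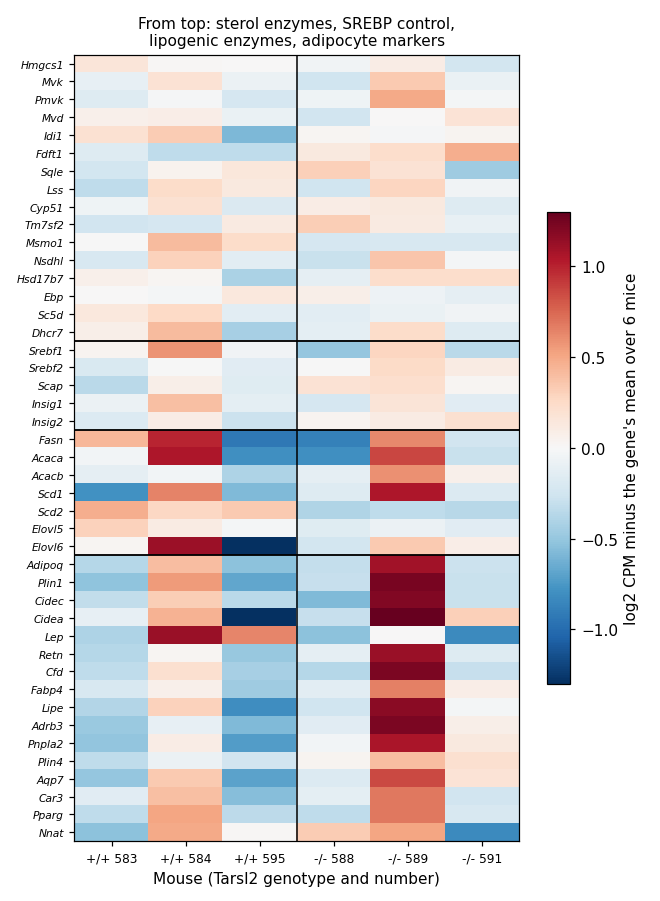
Colour gives the log2 CPM of each gene in each mouse minus the gene's mean over the 6 mice, for the 28 tested members and 16 adipocyte markers. Columns 584 and 589 are red in *Fasn*, *Acaca*, *Elovl6*, *Scd1* and most adipocyte markers, while *Fdft1* and *Scd2* change at the line between the genotypes.

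When mice 584 and 589 were both left out, an alternative chosen after seeing the data, *Scd2* was still lower (log2 fold change -0.78, adjusted p = 0.00915) and *Fdft1* was short of the threshold (0.56, adjusted p = 0.0515). *Scd1* was then at 0.51 (adjusted p = 0.0552) with 2 mice per genotype, and *Fasn* at -0.44 (adjusted p = 0.534). The Schwann cell markers, of which 10 of 12 were tested and 0 passed, had a median log2 fold change of 0.02 and a summed level of 202 to 219 CPM in *Tarsl2*+/+ and 148 to 253 CPM in *Tarsl2*-/- muscle. Of 8 liver markers, 4 were tested and 0 passed, with sums of at most 19.0 CPM.

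Macrophage markers differed between the genotypes and so moved with *Scd2*. Of 10 markers, all of them above 0 in every library, 6 were lower in *Tarsl2*-/- muscle at the threshold (*Lyz2*, *C1qc*, *Csf1r*, *C1qa*, *C1qb* and *Adgre1*), 9 did not overlap, and the median log2 fold change was -0.57. Their summed level was 1540 to 1740 CPM in *Tarsl2*+/+ and 887 to 1130 CPM in *Tarsl2*-/- muscle. Of 8 fibroblast markers, 7 were tested and 0 passed, with a median of -0.26. All 7 estimates were negative, and 3 (42.9%) did not overlap, against 24.6% of all tested genes. Among 10 skeletal muscle markers, 3 were higher (*Actn3*, *Des* and *Ckm*), with a median of 0.21. The part of these cell types in the levels of *Scd2* and *Fdft1* was not tested.

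Genes next to these pathways were taken from lists that hold no member. The counts of 0 in this paragraph were also 0 with DESeq2 and limma-voom, whereas the fit with no filter on low counts called 2 other sterol and isoprenoid genes higher, and 2 of the further fatty acid synthesis genes higher and 2 lower. Among 20 other genes of sterol and isoprenoid metabolism, 0 passed the edgeR test, 6 had an unadjusted p under 0.05 and the median log2 fold change was 0.04. The smallest p belonged to *Coq2*, a prenyltransferase of ubiquinone synthesis, with 65.2, 73.5 and 67.7 CPM in *Tarsl2*+/+ and 84.8, 88.7 and 80.4 CPM in *Tarsl2*-/- muscle (log2 fold change 0.30, adjusted p = 0.0883). Of 16 tested genes for SREBP cleavage and turnover, 0 passed and 1 had an unadjusted p under 0.05. *Fbxw7*, which marks nuclear SREBP for degradation, had the smallest p there (log2 fold change 0.32, adjusted p = 0.149). Of 22 tested further genes of fatty acid synthesis, 0 passed and 6 had an unadjusted p under 0.05. *Acly*, the enzyme that supplies cytosolic acetyl-CoA from citrate, had the smallest p among these, with 63.7, 67.9 and 53.9 CPM in *Tarsl2*+/+ and 44.7, 52.8 and 47.9 CPM in *Tarsl2*-/- muscle (log2 fold change -0.35, adjusted p = 0.0991).

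The LXRs and their targets gave 3 lower and 0 higher calls among 9 genes (4 lower with DESeq2), with a median log2 fold change of -0.35. Not all calls named here and for triglyceride synthesis held under the alternatives, as given in the last section. *Pltp*, which encodes phospholipid transfer protein, had 25.6, 26.8 and 25.6 CPM in *Tarsl2*+/+ and 12.3, 13.3 and 15.5 CPM in *Tarsl2*-/- muscle. The genotypes were far apart, and *Pltp* fell by 0.92 on the log2 scale (adjusted p = 0.00207). *Abcg1*, a sterol exporter, fell from 3.45, 2.18 and 2.94 CPM to 0.78, 1.12 and 1.21 CPM (log2 fold change -1.45, adjusted p = 0.0268). *Mylip*, the ubiquitin ligase that removes lipoprotein receptors, fell from 30.8, 30.6 and 34.4 CPM to 22.5, 19.0 and 25.6 CPM (log2 fold change -0.51, adjusted p = 0.045). *Srebf1*, *Fasn* and *Scd1* are known LXR targets as well and were at -0.37, -0.40 and 0.46, none past the threshold. The macrophage markers named above were lower in the same mice, and macrophages are known to express *Pltp* and *Abcg1*. Their part was not tested.

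In triglyceride synthesis, 14 of 16 tested genes had positive and 2 negative estimates, with a median of 0.26, and 1 gene was called in each direction (5 higher and 1 lower with no filter on low counts). *Gpam*, the mitochondrial acyltransferase of the first step, rose from 17.4 ± 3.44 to 30.0 ± 5.90 CPM (SD, n = 3, log2 fold change 0.78, adjusted p = 0.0347). *Acsl3*, an acyl-CoA synthetase of the endoplasmic reticulum and lipid droplets, fell from 19.5, 13.8 and 19.1 CPM to 11.8, 8.61 and 8.02 CPM (log2 fold change -0.88, adjusted p = 0.0254). The summed level of this list was 460 to 665 CPM in *Tarsl2*+/+ and 544 to 947 CPM in *Tarsl2*-/- muscle and highest in mouse 589, as for the adipocyte markers. Over the 82 tested genes of all 5 lists, 1 was higher and 4 lower, and 24.4% did not overlap between the genotypes, close to the share of all tested genes.

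**Figure D5:**
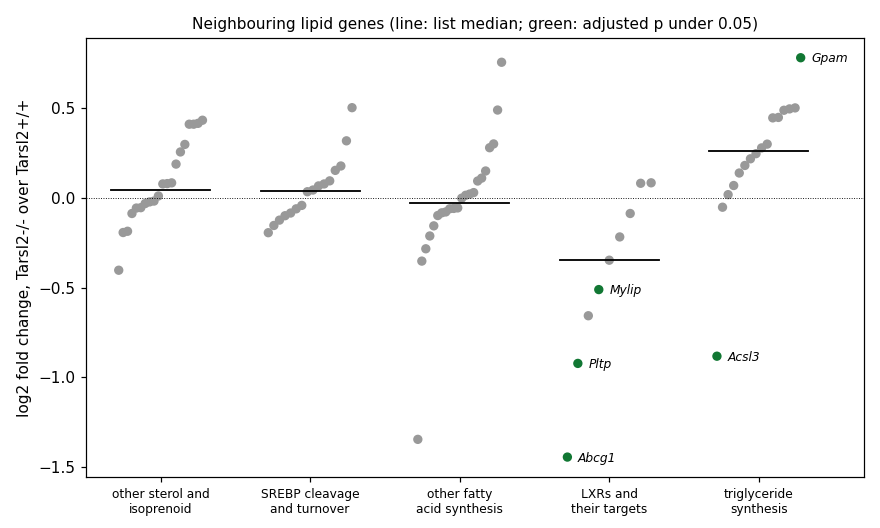
Each point is a tested gene of 1 of the 5 lists that hold no member. The y axis is the log2 fold change (*Tarsl2*-/- over *Tarsl2*+/+), lines are list medians and green points passed the test. *Pltp*, *Abcg1*, *Mylip*, *Acsl3* and *Gpam* are named, and the medians run from -0.35 for the LXR list to 0.26 for triglyceride synthesis.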

How the data were processed

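RNA was sequenced from the muscle of 6 mice, 3 per genotype. The authors deposited raw gene counts in whole numbers with the coordinates and length of each gene. The methods describe a stranded poly(A) library with paired-end reads mapped by HISAT2 to mm10, whereas the submitters' processing notes list Bowtie 0.12.2 and mm8 and the sample records name a retinal extraction. The gene coordinates match GRCm38. The counting tool, annotation and use of strand are not given in the sources used here.

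Genotypes were taken from the sample records. Genes were filtered with filterByExpr (minimum count 10, minimum total 15), scaled by TMM, and compared between genotypes, with no covariate, by the quasi-likelihood test of edgeR 4.0.16 in R 4.3.3. Adjustment over the 15075 tested genes was by Benjamini-Hochberg, and genes under 0.05 were called. The log2 fold change over the root of its F statistic gave the standard error. Levels per kilobase used the deposited gene length. All library pairs of one genotype were unlike beyond sampling noise, with a chi-square per gene of 12.9 or more. The intervals of the log2 fold changes rest on the standard error from this test and so include the spread between mice. The counting error given for *Lss* covers counting alone. The procedure was tested on simulated data.

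The members and all lists were chosen with earlier results of these data known. All 29 members were named. Of the 5 neighbouring lists, every gene past the threshold was named, or the gene with the smallest p where none was. The symbol *Itgam* occurs more than once, and the entry with the most counts was used. Promoters are from RefSeq (GRCm38.p6), transcripts from GENCODE vM21. Alternatives were DESeq2 1.42.0, limma-voom (limma 3.58.1), RLE size factors, upper quartile scaling, a minimum of 1 count in any library in place of the filter, a minimum of 10 in all libraries, and each library left out. The study's methods name DESeq2 as the tool.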

Additional observations from a re-analysis of the deposited data

How the results depend on the processing

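The fall of *Scd2* passed the threshold under all alternatives, and so did that of *Tarsl2*. *Fdft1* was called in 9 of 13. The number of sterol enzymes called higher was 0 to 1 over the fits without one library, and 0 without mice 584 and 589 together. DESeq2 called 719 genes in all. The fit with no filter on low counts called 1440 of 25553 genes. There edgeR took the spread of each gene from its trend (its prior degrees of freedom were infinite, where the filtered fit had 7.23). It called 1 SREBP control gene lower (*Srebf1*), 2 lipogenic enzymes lower (*Scd2* and *Fasn*) and 2 higher (*Scd1* and *Acacb*). The genotypes overlapped in all of these except *Scd2*. Leaving out each library gave 81 to 625 genes in all, a median log2 fold change of -0.0547 to 0.126 for the sterol enzymes and of -0.525 to 0.461 for the lipogenic enzymes. The highest of these medians, and the 625 genes, came without *Tarsl2*+/+ mouse 584, and the 81 genes without *Tarsl2*+/+ mouse 583.

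The log2 fold changes that turned direction were all short of the threshold. With limma-voom they were *Mvk* (-0.0158), *Idi1* (0.0408), *Sqle* (-0.00258) and *Elovl6* (0.128), and with upper quartile scaling *Mvk* (-0.015). Without mice 584 and 589 they were *Mvk* (-0.0746), *Idi1* (0.178), *Sqle* (-0.000619), *Dhcr7* (0.00953) and *Elovl6* (0.456). Over the fits that left out one library, the estimates ran from -0.175 to 0.129 for *Mvk*, -0.254 to 0.163 for *Idi1*, -0.111 to 0.254 for *Sqle*, -0.151 to 0.205 for *Nsdhl*, -0.143 to 0.072 for *Mvd*, -0.186 to 0.0826 for *Lss*, -0.0524 to 0.146 for *Cyp51* and -0.274 to 0.143 for *Dhcr7*. They ran from -0.263 to 0.0472 for *Insig1*, -0.894 to 0.0559 for *Fasn*, -0.785 to 0.461 for *Acaca*, -0.598 to 0.595 for *Elovl6* and -0.0743 to 1.04 for *Scd1*. The cause was not tested. No paired analysis was made, because which of these mice were littermates is not given in the sources used here. With 3 mice per genotype, the 95% intervals of *Pmvk*, *Tm7sf2*, *Hsd17b7*, *Scd1*, *Acaca*, *Acacb* and *Elovl6* include a log2 fold change as large as that of *Fdft1*, so a rise of that size is not excluded in them.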
